A study of Homo sapiens with 6 samples.

Results

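The genes described here are 10 non-coding snoRNA host genes, GAS5, ZFAS1, SNHG1, SNHG5, SNHG6, SNHG7, SNHG8, SNHG12, SNHG15 and SNHG16. They were taken by name from a fixed list, and 10 of 10 were found among the 56303 gene symbols counted in the series. The list was drawn up with earlier results of these data known, so the share of its genes that changed is a description. RNA of SW480, an established human colorectal cancer line, was sequenced from 3 control libraries and 3 libraries with RBM39 knockdown. The control libraries (shCtrl, genotype WT) carried a control short hairpin RNA, and the knockdown libraries (shRBM39) carried a hairpin against RBM39, an RNA-binding splicing factor. According to the study's methods the hairpins were delivered by lentivirus and stable lines were selected with puromycin, so both groups went through infection and selection. These lines are described as clonal, and the labels give neither the number of clones nor the hairpin sequence. The study describes the 3 libraries of a group as independent replicate experiments, and the labels do not say whether each came from its own culture, so the p-values measure the spread between these libraries.

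Small nucleolar RNAs (snoRNAs) guide chemical modification of ribosomal RNA. Box C/D snoRNAs direct ribose methylation and box H/ACA snoRNAs direct pseudouridylation. Most human snoRNAs are cut out of the introns of a host gene after splicing. In a non-coding host the spliced exons hold no long reading frame. Several such spliced RNAs, GAS5 among them, are known to be engaged by ribosomes and then degraded by nonsense-mediated decay, a pathway that removes RNAs on which translation stops early. The level of a host RNA in mRNA sequencing therefore reflects its synthesis, its splicing and its decay together, and none of these was measured separately here.

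Of the 10 host genes, 7 were lower in shRBM39 libraries, none was higher and 3 were not called. Across all 18243 genes tested, 59.1% were called at an adjusted p under 0.05, 29.9% lower and 29.2% higher, so calls in both directions were common in this comparison. SNHG8 fell by 46.5% and SNHG6, at the other end, fell by 12.4%. The median log2 fold change was -0.30 over the 10 host genes and -0.01 over all genes tested. Summed over the 10 genes, the shCtrl level was 780, 783 and 782 CPM (counts scaled to a common library size by the TMM method) and the shRBM39 level 586, 596 and 631 CPM. GAS5 alone made up 32.1% of the sum in shCtrl and 28.8% in shRBM39. In a bulk library, less host RNA per cell and fewer cells with the RNA cannot be told apart.

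The libraries held between 18042924 and 20428901 counts assigned to genes, and each host gene had between 166 and 5219 counts in every library. RBM39 itself was at 435 to 448 CPM in shCtrl and 266 to 292 CPM in shRBM39 (log2 fold change -0.67, edgeR adjusted p = 1.24e-16), so RBM39 RNA was reduced and not removed. The epithelial keratin KRT8 was at 6690 CPM or above in every library and EPCAM at 562 CPM or above. The intestinal marker VIL1 was at 632 CPM or above (log2 fold change -0.09) and the cadherin CDH1 at 66.1 CPM or above (-0.39). KRT20 was at most 1.45 CPM and was higher in shRBM39 (log2 fold change 1.82), and CDX2 was at most 22.4 CPM and was lower (-2.13). Among markers of other cell types, the leukocyte gene PTPRC had 0 counts in all libraries and the fibroblast gene COL1A2 at most 3, while COL1A1 had 110 to 208 counts and the endothelial gene PECAM1 57 to 122, both higher in shRBM39 (log2 fold changes 0.81 and 0.79). Their part in the host gene results was not tested.

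The largest change was in SNHG8, the host of SNORA24 on chromosome 4 (chr4:118278709-118279823, plus strand, GRCh38). Its level was 18, 18.3 and 17.6 CPM in shCtrl and 8.52, 9.64 and 10.7 CPM in shRBM39. Every knockdown library lay below every control library, and the group means were 18 ± 0.379 and 9.62 ± 1.08 CPM (SD, n = 3 libraries each). The log2 fold change was -0.90 with a standard error of 0.08 (edgeR adjusted p = 1.76e-11). SNHG1, which hosts SNORD22 and several neighbouring box C/D snoRNAs (chr11:62851988-62855914, minus strand), was at 49.9, 56.7 and 53.0 CPM in shCtrl. In shRBM39 it was at 33.3, 30.8 and 34.0 CPM, again without overlap. The level decreased by 38.5% (log2 fold change -0.70 ± 0.05 SE, edgeR adjusted p = 1.98e-13).

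SNHG7, the host of the H/ACA snoRNAs SNORA17A and SNORA17B (chr9:136721366-136728184, minus strand), was at 37.6, 37.4 and 35.8 CPM in shCtrl and at 22.5, 24.3 and 24.5 CPM in shRBM39. The groups were separated by more than the spread inside either one, and the level decreased by 35.7% (log2 fold change -0.64 ± 0.06 SE, edgeR adjusted p = 8.76e-12). GAS5 (growth arrest specific 5), whose spliced RNA accumulates when cell growth stops, lies at chr1:173863900-173868882 on the minus strand. It had the highest CPM of the 10 genes, at 255, 246 and 251 CPM in shCtrl and 164, 173 and 184 CPM in shRBM39. The highest knockdown library was thus well under the lowest control library. GAS5 decreased by 30.6% (log2 fold change -0.53 ± 0.04 SE, 95% interval -0.61 to -0.45, edgeR adjusted p = 1.55e-13).

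Smaller decreases were measured in SNHG5, ZFAS1 and SNHG6. SNHG5, the host of SNORD50B (chr6:85660950-85678736, minus strand), was at 123, 124 and 125 CPM in shCtrl and 96.3, 97.9 and 103 CPM in shRBM39 (log2 fold change -0.32 ± 0.04 SE, edgeR adjusted p = 1.55e-08). ZFAS1, which starts beside ZNFX1 on the opposite strand and hosts the SNORD12 group (chr20:49278178-49295738, plus strand), was at 123, 131 and 131 CPM in shCtrl and 106, 105 and 109 CPM in shRBM39 (log2 fold change -0.27 ± 0.04 SE, edgeR adjusted p = 4.6e-07). Neither gene had overlapping groups. The count table also holds ZNFX1-AS1_2, with 1510 to 2209 counts and a log2 fold change of -0.22, and ZNFX1-AS1_3, with 640 to 1074 counts and a log2 fold change of -0.47. Both lie inside ZFAS1 on the same strand, so the division of reads among these symbols is uncertain.

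SNHG6, the host of SNORD87 on chromosome 8, was at 117, 112 and 114 CPM in shCtrl and at 93.7, 99.5 and 106 CPM in shRBM39. The groups did not overlap, and the level fell by 12.4% (log2 fold change -0.19 ± 0.04 SE, edgeR adjusted p = 0.000283). This call was lost when counts were corrected for the trend of each library with GC content and gene length (log2 fold change -0.055, edgeR adjusted p = 0.271). That correction moved the median of all genes tested to 0.14 and that of the host genes to -0.18. With it, 18.8% of all genes tested were called lower and 42.2% higher.

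SNHG12, SNHG15 and SNHG16 were not called. SNHG12 (chr1:28578538-28582983, minus strand) holds 4 annotated snoRNA loci, among them SNORA61, SNORA16A and SNORD99. It was at 12.3, 12.1 and 12.2 CPM in shCtrl and 13.4, 12.7 and 13.6 CPM in shRBM39. All knockdown libraries were above all control libraries, yet the log2 fold change of 0.12 had a 95% interval of -0.04 to 0.27 (edgeR adjusted p = 0.196). SNHG16, the host of the SNORD1 group (chr17:76557766-76565348, plus strand), was at 28.3, 29.6 and 26.7 CPM in shCtrl and 31.4, 30.6 and 30.3 CPM in shRBM39 (log2 fold change 0.12 ± 0.06 SE, edgeR adjusted p = 0.0594). The SNHG16 groups did not overlap either. Its 95% interval of 0.01 to 0.24, which is not adjusted for the number of genes, lay just above 0. SNHG15 (chr7:44983023-44986961, minus strand) was the member whose groups overlapped, at 15.3, 16.3 and 15.7 CPM in shCtrl and 16.7, 13.0 and 14.9 CPM in shRBM39. Its log2 fold change was -0.08 with a 95% interval of -0.24 to 0.08 (edgeR adjusted p = 0.417).

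The 3 genes without a call depended on how libraries were scaled. With the GC content and length correction, SNHG12 (log2 fold change 0.24, edgeR adjusted p = 0.00905) and SNHG16 (0.27, edgeR adjusted p = 9.02e-05) were called higher. SNHG16 was also called higher without shCtrl replicate 2 (0.16, edgeR adjusted p = 0.032). With library totals alone, which moved the median of all genes tested to -0.14 and that of the host genes to -0.42, SNHG15 was called lower (-0.20, edgeR adjusted p = 0.0335). Under that scaling 40.4% of all genes tested were called lower and 20.7% higher. The 6 called genes other than SNHG6 had log2 fold changes between -1.03 and -0.16 under every alternative setting and were below 0 in each.

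**Figure D1:**
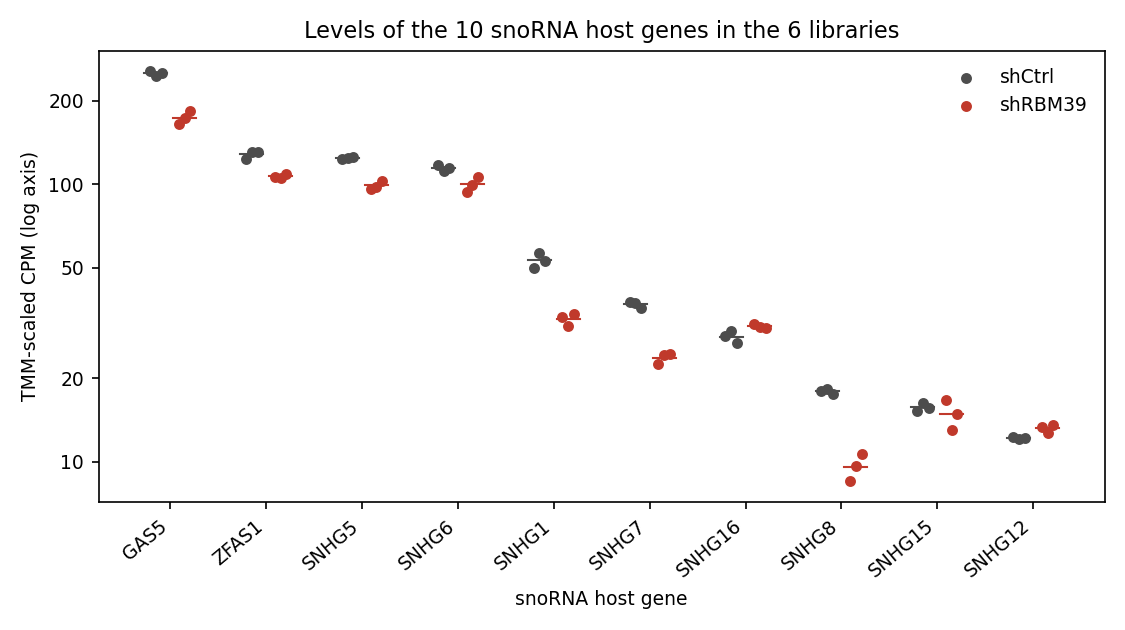
TMM-scaled CPM (log axis) of each of the 10 host genes in the 3 shCtrl (grey) and 3 shRBM39 (red) libraries. Points are libraries and short lines are group means; 9 of 10 genes show no overlap between groups, SNHG15 being the exception, and over all genes tested 63.3% had no overlap.

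**Figure D2:**
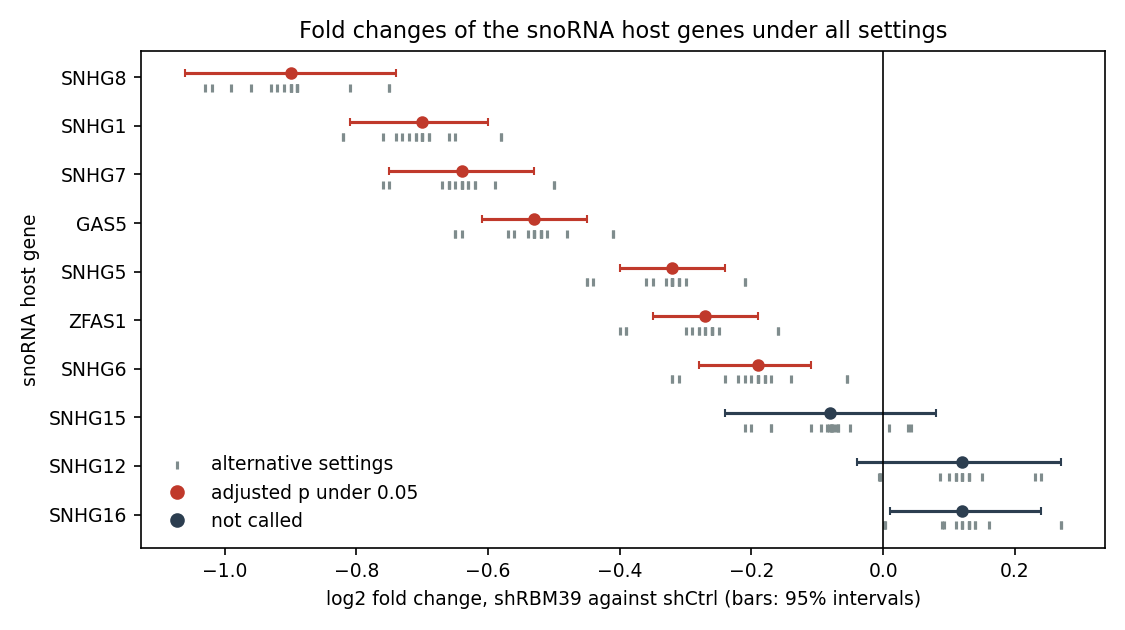
Log2 fold change (shRBM39 against shCtrl) of each host gene, with bars for the 95% interval and grey ticks for the 18 alternative settings. Genes called at an adjusted p under 0.05 are red, running from -0.90 for SNHG8 to -0.19 for SNHG6; the grey ticks of SNHG12 and SNHG15 fall on both sides of 0.

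Compared per length, the host genes spanned a wide range of abundance. On the authors' RPKM scale, which divides reads by gene length and library total, SNHG6 was the most abundant in shCtrl at 95.3 ± 1.27 RPKM (SD, n = 3). It was followed by GAS5 at 71.9 ± 0.732, ZFAS1 at 59.8 ± 2.65 and SNHG5 at 46.3 ± 0.649 RPKM. A middle group held SNHG8 at 20.3 ± 0.486, SNHG1 at 14.8 ± 1.06 and SNHG7 at 8.86 ± 0.224 RPKM. The least abundant were SNHG16 at 5.48 ± 0.301, SNHG15 at 4.51 ± 0.191 and SNHG12 at 3.76 ± 0.0177 RPKM. No neighbours in this order overlapped in shCtrl.

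In shRBM39 the order was the same down to SNHG1, at lower levels. SNHG6 was at 76.6 ± 4.8 RPKM, GAS5 at 45.8 ± 2.56, ZFAS1 at 45.5 ± 0.898 and SNHG5 at 34.0 ± 1.27 RPKM. GAS5 and ZFAS1 overlapped and their order could not be told. SNHG8 was at 9.97 ± 1.11 and SNHG1 at 8.33 ± 0.436 RPKM. SNHG16, at 5.49 ± 0.111 RPKM, then stood above SNHG7, at 5.23 ± 0.233 RPKM, which reverses their order in shCtrl. They were barely separated, as the lowest SNHG16 library was at 5.41 and the highest SNHG7 library at 5.4 RPKM. SNHG15 at 3.91 ± 0.499 and SNHG12 at 3.75 ± 0.147 RPKM overlapped. The RPKM values rest on library totals and on the merged exon length of each gene, which was 923 to 5362 nt for these genes.

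Gene models could affect these levels. Between 63.6% and 85.7% of the exons listed for each host gene in the deposited table were identical to a GENCODE v44 exon of GRCh38. The strand setting used when reads were counted is not given in the sources used here, so reads from a gene overlapping on the opposite strand may not be separated. The most abundant is ZNFX1, which overlaps the start of ZFAS1 with 3884 to 4865 counts and a log2 fold change of 0.30, while ZFAS1 had 1808 to 2787 counts. Others include GAS5-AS1, with 6 to 21 counts and a log2 fold change of -1.04, and TRNAU1AP over SNHG12, with 100 to 185 counts and a log2 fold change of -0.47.

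The genes that start within 1000 bases of a host gene on the other strand moved in either direction. ZNFX1, an RNA helicase gene beside ZFAS1, was higher in shRBM39, at 196 ± 6.08 CPM in shCtrl and 241 ± 6.33 CPM in shRBM39 (log2 fold change 0.30, edgeR adjusted p = 3.04e-08), while ZFAS1 was lower. ZBTB37, a zinc finger gene beside GAS5, was also higher (4.11 ± 0.708 against 5.48 ± 0.825 CPM, log2 fold change 0.42, edgeR adjusted p = 0.00969), while GAS5 was lower. SLC3A2, which encodes the heavy chain of an amino acid transporter and starts 188 bases from SNHG1, was lower (259 ± 14.5 against 215 ± 9.46 CPM, log2 fold change -0.27, edgeR adjusted p = 9.46e-07), as was SNHG1. RP11-666A8.8, which starts 83 bases from SNHG16, was at 1.46 ± 0.183 CPM in shCtrl and 0.724 ± 0.149 CPM in shRBM39 (log2 fold change -0.99, edgeR adjusted p = 0.00167). The other 6 host genes had no such partner among the genes tested.

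Many snoRNA hosts belong to the class of genes whose RNA begins with a C followed by a run of pyrimidines, the terminal oligopyrimidine tract that ties translation to growth signals. In the RefSeq promoter table (GRCh38.p14) 8 of the 10 host genes were matched; SNHG6 and SNHG15 were not. A start base C followed by at least 3 bases that are C or T, read on the gene's own strand only, was found in 4 of the 8 and in 5.45% of all 35116 promoters in the table. Among the protein-coding snoRNA hosts listed for comparison it was found in 10 of 18 matched. The windows of the 4 hosts are printed with 20 bases before and 20 bases from the start, and the pyrimidine run from the start base is in capitals.
ZFAS1, chr20:49278622-49278661, plus strand: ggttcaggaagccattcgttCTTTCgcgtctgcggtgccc
SNHG5, chr6:85678714-85678753, minus strand: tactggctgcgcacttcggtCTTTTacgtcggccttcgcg
SNHG7, chr9:136728165-136728204, minus strand: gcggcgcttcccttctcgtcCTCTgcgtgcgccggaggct
SNHG12, chr1:28581854-28581893, minus strand: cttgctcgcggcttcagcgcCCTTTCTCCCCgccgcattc

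Hosts with the tract in these windows and hosts without it both included lower genes and a gene that was not called. Of those with it, ZFAS1, SNHG5 and SNHG7 were lower and SNHG12, with the longest run at 11 bases, was not called. Of the 4 matched hosts without it in these windows, GAS5, SNHG1 and SNHG8 were lower and SNHG16 was not called. SNHG1 had a run of 3 bases, just short of the cutoff. Whether the tract goes with the change was not tested, and 8 matched genes are too few to tell. The start used for each gene is the one in the RefSeq table, and for GAS5 and SNHG16 it lies outside the gene model of the count table, for SNHG16 by 2 bases. For GAS5 it is at 173869045, while the minus-strand model begins at 173868882, so the GAS5 window does not cover the start of the counted model. For SNHG12 it is at 28581873, inside a minus-strand model that begins at 28582983.

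The deposited splicing table holds records that the authors had already selected with rMATS, software that compares the share of reads including or skipping an exon or intron between groups. It lists 1582 records from 1198 gene symbols, of which 12 records came from 6 of the 10 host genes. SNHG1 had 5 records, SNHG8 and SNHG12 had 2 each, and GAS5, ZFAS1 and SNHG16 had 1 each. SNHG5, SNHG6, SNHG7 and SNHG15 had none listed. The table calls its sides group 1 and group 2, with 3 values each. No source used here says which is the knockdown, so differences are given between the numbered groups only. Since the records had been chosen for their difference, no test was made. All 12 showed no overlap between groups, as did 57.5% of all records in the table, and 9 had at least 20 event reads in every library.

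A skipped exon was recorded 5 times, and in each the exon was included less in group 1. Of all 1263 skipped-exon records in the table, 72.6% were lower in group 1, so this direction was the common one. These exons are printed because they lie beside snoRNA-bearing introns. Exon bases are in capitals and 8 intron bases on each side in lower case, 5′ to 3′ on the gene's strand in GRCh38. In each the intron before ends in AG and the intron after begins with GT.
SNHG1, chr11:62854018-62854064: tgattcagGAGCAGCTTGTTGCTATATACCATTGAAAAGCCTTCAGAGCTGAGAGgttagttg
SNHG1, chr11:62854888-62854938: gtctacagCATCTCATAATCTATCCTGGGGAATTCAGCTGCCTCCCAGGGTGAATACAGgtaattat
ZFAS1, chr20:49280903-49280964: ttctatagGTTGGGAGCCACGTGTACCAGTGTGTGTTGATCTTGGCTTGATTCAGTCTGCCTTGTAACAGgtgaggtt
SNHG16, chr17:76558945-76559043: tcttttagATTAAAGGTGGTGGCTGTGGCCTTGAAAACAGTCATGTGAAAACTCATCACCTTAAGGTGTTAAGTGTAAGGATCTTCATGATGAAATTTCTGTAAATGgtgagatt
SNHG8, chr4:118278944-118279137: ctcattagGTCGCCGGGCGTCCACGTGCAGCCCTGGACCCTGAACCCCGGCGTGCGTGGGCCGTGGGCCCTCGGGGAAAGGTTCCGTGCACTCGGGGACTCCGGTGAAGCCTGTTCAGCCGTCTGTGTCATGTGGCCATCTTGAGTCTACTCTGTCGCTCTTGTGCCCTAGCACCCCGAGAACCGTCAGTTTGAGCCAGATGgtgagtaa

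The ZFAS1 exon of 62 nt, next to the intron with SNORD12, had the deepest record, with 478 to 904 event reads per library. It was included at 0.505, 0.468 and 0.513 in group 1 and at 0.755, 0.751 and 0.772 in group 2. The spread inside each group was far smaller than the difference of -0.264 (group 1 minus group 2). The SNHG16 exon of 99 nt, between introns that hold SNORD1C and SNORD1B, was included at 0.415, 0.395 and 0.425 in group 1 and 0.67, 0.578 and 0.57 in group 2, from 119 to 150 reads. SNHG16 thus appeared in the splicing table although its total level was not called. The SNHG8 exon of 194 nt, beside SNORA24, was included at 0.534, 0.436 and 0.557 in group 1 and 0.836, 0.8 and 0.877 in group 2, from 27 to 99 reads.

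SNHG1 had both a weak and a strong skipping record. Its 47-nt exon, beside SNORD22, was included at 0.746, 0.755 and 0.79 in group 1 and 0.922, 0.915 and 0.883 in group 2. Its 51-nt exon, beside introns with SNORD27 and SNORD28, was included at 0.519, 0.541 and 0.715 in group 1 and 0.945, 0.952 and 0.928 in group 2. The 51-nt exon was therefore nearly always included in group 2 and often skipped in group 1. Both mutually exclusive records of SNHG1 involve this exon as well. Against the 33-nt exon downstream its share was 0.284, 0.319 and 0.487 in group 1 and 0.822, 0.849 and 0.78 in group 2. Set against an 84-nt exon upstream, the 84-nt form took 0.733, 0.688 and 0.483 in group 1 and 0.351, 0.314 and 0.422 in group 2. These records share reads around one exon and are not independent. An alternative 3′ splice site record of SNHG1, whose longer form adds 231 nt, had the same skipping reads as the 47-nt exon and differed by -0.174.

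In GAS5, a 269-nt exon form (chr1:173866528-173866796) alternated with a 350-nt form (chr1:173865857-173866206). The 269-nt form took 0.469, 0.552 and 0.498 in group 1 and 0.348, 0.411 and 0.429 in group 2, from 162 to 342 reads. This difference of 0.11 was the smallest of the 12. An alternative 5′ splice site record of SNHG8, whose longer form adds 345 nt and which has the same skipping reads as the 194-nt exon, was at 0.319, 0.19 and 0.277 in group 1 and 0.552, 0.523 and 0.65 in group 2, from only 19 to 45 reads.

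SNHG12 had a pair of retained-intron records over the intron that holds SNORA61. The 354-nt form (chr1:28579588-28579941) was retained at 0.251, 0.538 and 0.695 in group 1 and 0.241, 0.235 and 0.168 in group 2. The 324-nt form (chr1:28579588-28579911) was retained at 0.29, 0.651 and 0.349 in group 1, against 0.105, 0.072 and 0.172 in group 2. Each rested on 15 to 31 event reads per library, and the values of group 1 were widely spread. The forms overlap, so their records are not independent. For the 354-nt form the lowest group 1 value, 0.251, was close to the highest group 2 value, 0.241. In 11 of the 12 records a snoRNA lies in the introns of the event, GAS5 being the record without one in the annotation used. That annotation gave no named snoRNA locus anywhere inside GAS5, although GAS5 is listed as a host. It therefore cannot tell whether the GAS5 event lies beside a snoRNA.

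**Figure D3:**
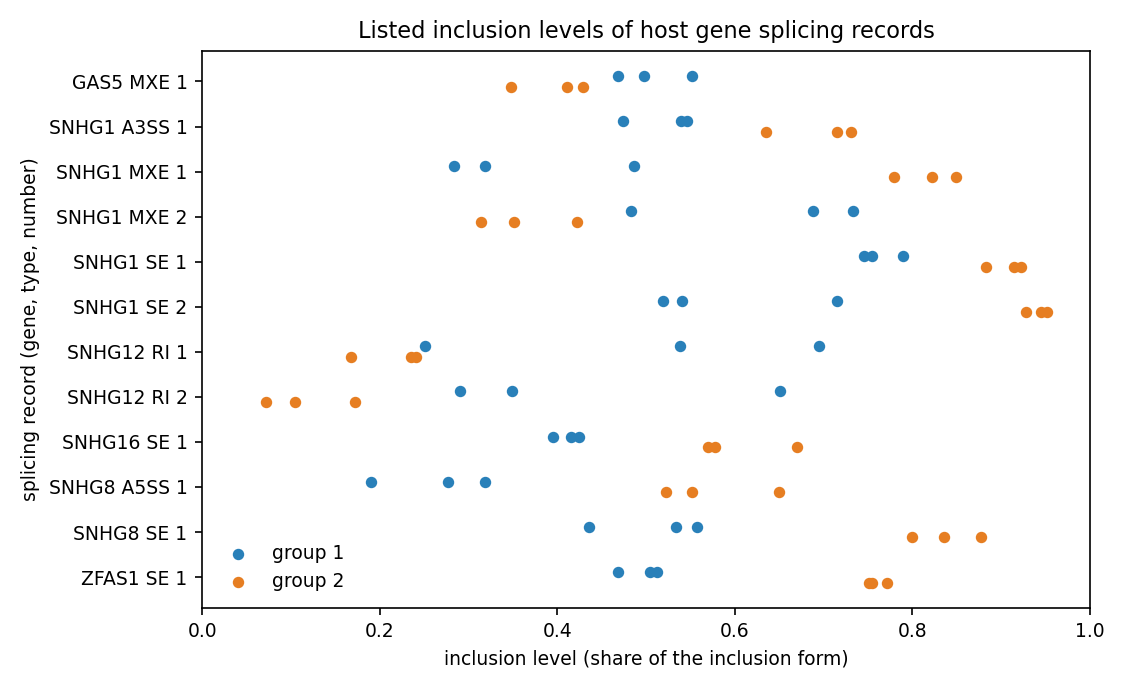
Inclusion level (share of the inclusion form, 0 to 1) of the 12 splicing records of host genes, with 3 points for group 1 (blue) and 3 for group 2 (orange). SE is a skipped exon, MXE mutually exclusive exons, A5SS and A3SS alternative splice sites and RI a retained intron; 8 records are lower in group 1 and 4 higher, where 68.5% of all records in the table are lower, and the groups do not overlap in any of the 12.

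The snoRNAs have symbols of their own in the count table. Of 16 snoRNA symbols inside 7 of the host genes, 11 had at most 9 counts in any library. The other 5 were tested, and 3 were higher and none lower in shRBM39. Of these 3, SNORD26 reached 10 counts in every shRBM39 library but had 9 in shCtrl replicate 3. It was therefore absent from the fit that asked for at least 10 counts in every library. Its place in the tally leans on the group where it was higher. Over all genes tested 29.2% were called higher and 29.9% lower. The libraries were made with an mRNA kit, and a mature snoRNA has no poly(A) tail. Reads at these symbols may come from mature snoRNA or from unspliced host RNA, and a count table cannot tell these apart. SNORA61 and SNORA17A, the H/ACA snoRNAs among the 3 that were higher, are printed with the ACA box in capitals, which is 3 bases from the end in both.
SNORA61, in SNHG12, chr1:28579764-28579893, minus strand: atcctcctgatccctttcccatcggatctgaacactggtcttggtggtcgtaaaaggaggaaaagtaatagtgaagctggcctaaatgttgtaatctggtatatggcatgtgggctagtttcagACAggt
SNORA17A, in SNHG7, chr9:136726747-136726879, minus strand: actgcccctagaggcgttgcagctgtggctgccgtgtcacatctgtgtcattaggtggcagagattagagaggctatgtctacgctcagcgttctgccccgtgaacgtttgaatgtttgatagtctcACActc

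SNORA61 had 29, 33 and 34 counts in shCtrl and 55, 43 and 63 counts in shRBM39. Every knockdown library was above every control library, and the log2 fold change was 0.88 ± 0.19 SE (edgeR adjusted p = 0.000142). The SNHG12 host, in contrast, was not called. SNORA17A had 25, 28 and 30 counts in shCtrl and 38, 40 and 43 in shRBM39 (log2 fold change 0.68 ± 0.21 SE, edgeR adjusted p = 0.0051), while its host SNHG7 was lower. This call was lost with DESeq2 (adjusted p = 0.061). SNORD26, in SNHG1, had 11, 12 and 9 counts in shCtrl and 25, 15 and 17 in shRBM39 (log2 fold change 0.96 ± 0.31 SE, edgeR adjusted p = 0.00868). Its call was lost with DESeq2 (adjusted p = 0.093) and without shRBM39 replicate 1 (log2 fold change 0.75, edgeR adjusted p = 0.0805). SNORD22, counted over more than one locus, gave a log2 fold change of 0.57 (edgeR adjusted p = 0.0523), and SNORD25 gave 0.16 (edgeR adjusted p = 0.646). The difference between a snoRNA symbol and its host was not tested.

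**Figure D4:**
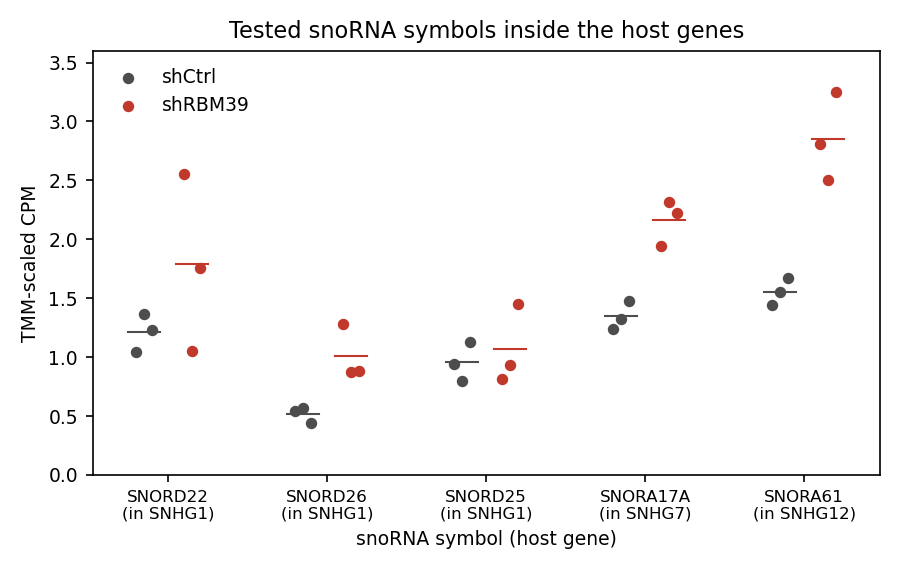
TMM-scaled CPM of the 5 tested snoRNA symbols inside SNHG1, SNHG7 and SNHG12, by library (grey shCtrl, red shRBM39), with lines for group means. The groups of SNORA61, SNORA17A and SNORD26 do not overlap, and all values are below 3.6 CPM.

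Other host genes and the decay pathway were read beside the 10 genes by their counts alone. For each list below, the shares over all genes tested were 29.9% lower and 29.2% higher. With library totals alone they were 40.4% and 20.7%, and with the GC content and length correction 18.8% and 42.2%. Among 17 other non-coding hosts, 15 were tested, of which 7 were lower, 6 higher and 2 not called, with a median log2 fold change of -0.14. SNHG32, listed as C6orf48, fell from 39.3 ± 1.69 to 19.8 ± 0.311 CPM (log2 fold change -0.99), and EPB41L4A-AS1 fell from 42.6 ± 2.34 to 22.1 ± 0.845 CPM (-0.95). SNHG25 rose from 1.41 ± 0.16 to 2.21 ± 0.159 CPM (0.64). Non-coding hosts as a class thus moved both ways. With library totals alone 7 were lower and 3 higher, with DESeq2 6 were lower and 2 higher, and with the GC content and length correction 4 were lower and 6 higher.

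The 19 protein-coding snoRNA hosts split evenly, with 8 lower, 8 higher and 3 not called. Those with the largest changes rose, namely the chaperone gene HSPA8 (log2 fold change 0.82), the snoRNP protein gene NOP56 (0.78) and the chaperonin subunit gene TCP1 (0.64). With library totals alone 11 were lower and 6 higher, and with the GC content and length correction 7 were lower and 11 higher. Of the 8 proteins that bind snoRNAs, 7 were higher and none lower (median log2 fold change 0.37), led by NOP56, NOP10 (0.61) and GAR1 (0.45), the last 2 being H/ACA components.

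Among 10 nonsense-mediated decay factors, 4 were lower, 4 higher and 2 not called. With the GC content and length correction 2 were lower and 6 higher. SMG8, which regulates the SMG1 kinase, rose (log2 fold change 0.42), as did SMG5 (0.27), and UPF2, which bridges UPF1 and the exon junction complex, fell (-0.25). In the exon junction complex, which marks spliced junctions, 4 of 5 genes rose, with MAGOHB at 0.83, EIF4A3 at 0.77 and MAGOH at 0.74. The remaining one, CASC3, was lower and kept this call with library totals but not with the GC content and length correction, where none was lower. Of 11 decay enzymes 3 were lower and 6 higher, with 4 higher under library totals and 8 under the GC content and length correction. XRN1, the cytoplasmic exonuclease, fell by 0.64 on the log2 scale, while the decapping enzyme DCP2 (0.51) and the nuclear exonuclease XRN2 (0.41) rose. Of 6 protein-coding RNAs known as decay targets, 5 were lower and 1 was not called (median log2 fold change -0.44), with ATF3 at -1.16, GADD45A at -0.69 and GADD45B at -0.44. These are also stress-response genes. Decay itself was not measured.

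**Figure D5:**
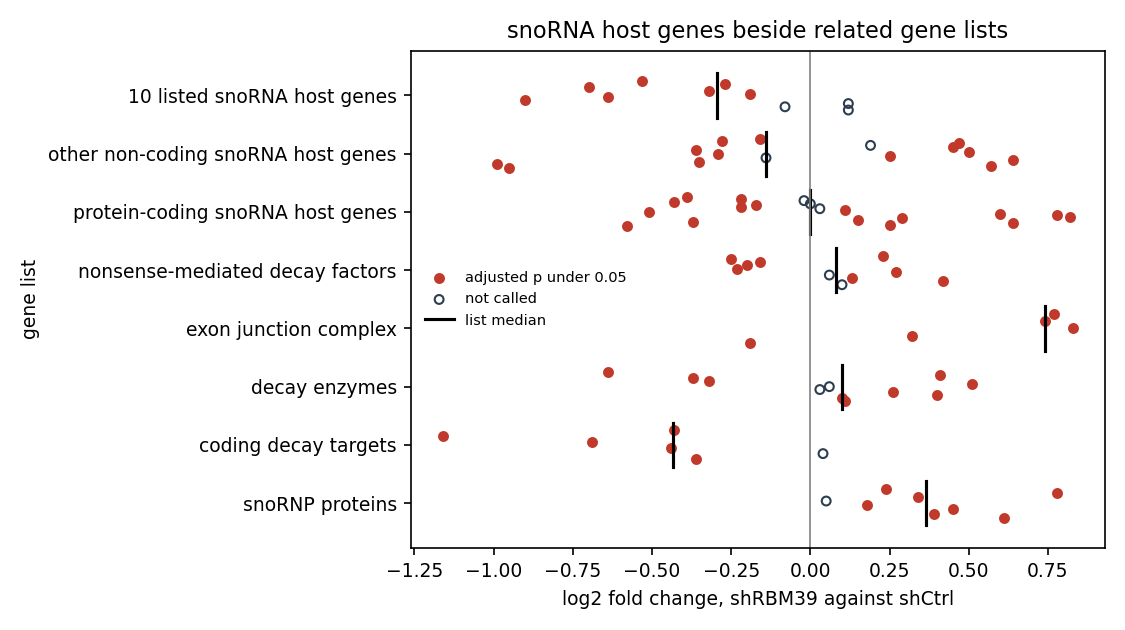
Log2 fold change (shRBM39 against shCtrl) of the 10 host genes and of the tested genes in 7 related lists. Each point is a gene, filled red when called at an adjusted p under 0.05 and open when not, and the black line is the list median, which is -0.30 for the 10 host genes, 0.74 for the exon junction complex and -0.44 for the coding decay targets.

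By similarity of log2 CPM over the 6 libraries, the genes most like GAS5 among 12057 compared were SSR1 (Pearson r = 0.9989), PLOD2 (r = 0.9988) and AC141928.1 (r = 0.9987). SSR1 encodes a subunit of the translocon-associated complex of the endoplasmic reticulum and PLOD2 a collagen lysyl hydroxylase. Their log2 fold changes were -0.31, -0.65 and -2.16. The 6 points form 2 groups of libraries, so these values mainly restate a shared difference between groups and are given as a description.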

How the data were processed

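The deposited table holds read counts per gene symbol with exon coordinates and RPKM values made by the authors. Per the submitters' processing notes, tools included Trimmomatic 0.36, STAR 2.5.3a, featureCounts of Subread 1.5.1 and edgeR 3.12.1 on GRCh38. The kit was a stranded mRNA kit with unique identifiers. The annotation release is not given in the sources used here. Columns of the authors' own comparisons in the deposited tables (p-values and false discovery rates) were not used. From the deposited rMATS records, inclusion levels and reads were read, and levels recomputed from reads and effective lengths matched to within 0.0005.

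Counts of 3 shCtrl and 3 shRBM39 libraries were fitted with edgeR 4.0.16 in R 4.3.3 (filterByExpr, TMM, quasi-likelihood test, group only), with Benjamini-Hochberg adjustment over 18243 genes and a threshold of 0.05. Intervals of 95% are normal intervals from the standard error. Alternatives used DESeq2 1.42.0, limma 3.58.1 on the RPKM values (pseudocounts 1 and 0.1), other scalings, filters and thresholds, a GC content and length correction (mgcv 1.9.3) and each library left out. The fit was tested on simulated data. Chi-square per degree of freedom between replicates was 2.11 to 4.21, so none were duplicates.

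The host genes and gene lists were chosen with earlier results of these data known. Named genes were all 10 hosts, up to 3 called genes with the largest change per list, partners starting within 1000 bases, snoRNA symbols with at least 10 counts, the 3 genes most correlated with GAS5 (mean of at least 5 CPM), and all splicing records of the hosts. Sequences are from hg38 (GRCh38) and, at starts, RefSeq.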

Additional observations from a re-analysis of the deposited data

How the results depend on the processing

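Under 13 of 18 alternatives 7 host genes were called, as in the fit reported, and testing against a log2 fold change of 0.5 left 3, all lower. That test lost GAS5, ZFAS1, SNHG5 and SNHG6. Of 180 fold changes under alternatives, 162 kept their direction and side of the threshold, 6 lost a call, 6 gained one and 6 turned direction. SNHG12 turned to -0.0045 with library totals alone, -0.0052 with limma on log2(RPKM + 1) and -0.0066 on log2(RPKM + 0.1). SNHG15 turned to 0.043 with the GC content and length correction, 0.038 with the replicate block added, and 0.0093 without shRBM39 replicate 2, and its values with 1 library left out ran from -0.17 to 0.0093. None of these turned values passed the test, and the cause was not tested. Replicate numbers did not pair the libraries (correlations of same-numbered deviations 0.00612, -0.0282 and 0.000114), and the replicate block gave 7 calls. Splicing differences turned in 0 of 96 values, and 4 moved by more than 1 SD, when effective length was ignored. Leaving out each of the 3 values of a group in turn was added after seeing the data. Precision is limited by 3 libraries a group, by 15 to 45 event reads in the shallowest splicing records, and by at most 63 counts for each tested snoRNA.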
